A study of Homo sapiens with 10 samples.

Results

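Colonies BR8 and BR10 are sublines of TPC-1, a papillary thyroid carcinoma cell line with a CCDC6-RET fusion, each grown out under continuous exposure to BLU667. BLU667 (pralsetinib) is an inhibitor of the RET tyrosine kinase. The comparison took 2 libraries of BR8 against 2 of BR10, 4 of the 10 libraries in the series. A gene entered it with at least 1 FPKM (fragments per kilobase of gene, scaled between libraries) in 2 or more of these 4 libraries. That condition held for 12336 of 58735 genes, with 1.0002 FPKM for the second-highest library of the lowest gene inside the limit and 0.9998 FPKM for the highest gene outside it. Both colonies were kept in 5 µM BLU667, for more than 50 days per the sample labels and for more than 5 months per the series design. Parental cells made up 2 of the other groups, treated for 24 h with the solvent DMSO in one and with BLU667 at 5 µM in the next. The last was a further colony, BR16, kept in the drug like BR8 and BR10. All 5 groups carry the same fusion and had 2 libraries each. BR8 and BR10 are 1 colony each, so the spread between libraries measures how well a colony's profile was repeated and not how colonies vary. Standard errors (SE) and p-values below rest on the spread within all 5 groups, including the parental cells and BR16. That spread was unequal and widest in the parental cells. Between replicate reads, chi-square per degree of freedom was 28.4 (DMSO), 17.2 (BLU667), 10.1 (BR8), 6.31 (BR10) and 2.79 (BR16).

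The RET receptor normally answers ligands of the GDNF family, and the CCDC6-RET fusion signals without ligand, mainly through the RAS-ERK cascade. ERK activity in turn drives a set of immediate targets that includes dual-specificity phosphatases, Sprouty proteins and ETS factors, several of which feed back to damp the cascade. Tumour cells that survive a kinase inhibitor are known to differ from each other in which receptors, ligands, adhesion molecules and inflammatory factors they express, and cultured carcinoma lines are known to carry rearranged chromosomes.

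Reads in genes numbered 15243703 to 21904245 per library over the series. Mitochondrial reads were 3.23% to 3.64% of the 4 libraries compared. Across the genes tested, log2 values correlated at r = 0.986 between the BR8 libraries and 0.987 between the BR10 libraries, against 0.943 to 0.947 for the pairs of a BR8 and a BR10 library, where genes are not independent replicates. The BR10 libraries differed from each other along the GC content of the transcripts (Spearman correlation -0.51 across 12332 genes), more than BR8 differed from BR10 (-0.18). RET, the drug's target, was at 7.24 and 7.04 FPKM in BR8 and 7.87 and 7.55 in BR10 (log2 difference -0.10 ± 0.08 (SE), adjusted p = 0.394), with 6.9 and 6.92 FPKM in DMSO. CCDC6 stayed under the limit, with 0.124 and 0.0808 FPKM in BR8 and 0.0842 and 0.198 in BR10. ALDOA, a glycolytic enzyme, was also under it, at 0.581 and 0.424 FPKM in BR8 and 0.395 and 0.507 in BR10. Whether reads of such genes were lost in counting was not tested, so the CCDC6 values may not give its true level. The files give no count for the fusion transcript itself. TERT, the catalytic subunit of telomerase, was at 0.284 and 0.116 FPKM in BR8 and 0.282 and 0.326 in BR10, under the limit. CDKN2A†, which encodes the cell cycle inhibitor p16 and the p53 activator p14ARF, was at 12.9 and 11.5 FPKM in BR8 and 14 and 17.6 in BR10 (log2 difference -0.34 ± 0.13 (SE), adjusted p = 0.0803), both colonies being below the 57.9 and 47.5 FPKM of DMSO.

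BR8 and BR10 differed in 3231 of the 12336 genes tested (26.2%; limma, Benjamini-Hochberg adjusted p below 0.05). Of these, 1609 were higher in BR8 (13.0% of the genes tested) and 1622 lower (13.1%). Limma's voom on reads recovered from the FPKM values called 1602 higher and 2178 lower. With a log2 difference of at least 1 besides, 308 were higher in BR8 (2.5%) and 261 lower (2.12%). The median absolute log2 difference was 0.22 over all genes tested and 0.60 over the called ones. For 8377 genes (67.9%) the 2 libraries of one colony lay wholly above those of the other. Leaving out a library changed how many genes were called: 1984 without BR8 replicate 1, 2144 without BR10 replicate 1 and 1917 without BR10 replicate 2. Where the count for a gene list moved by more than 1.5 times on leaving out a library, the counts are given without BR8 replicate 1, BR8 replicate 2, BR10 replicate 1 and BR10 replicate 2, always in this order. All differences below are log2(FPKM + 1) in BR8 minus BR10, a scale that understates changes of low genes, and a dagger (†) marks a gene with an exon that overlaps an exon of another gene in GENCODE 29. The libraries did not keep strand, so reads of such a gene and its partner cannot be told apart. Whether shared reads were counted for either gene or left out was not examined. Levels of marked genes, also where no read was counted, are therefore uncertain. In bulk RNA, fewer cells with a gene on and less RNA per cell cannot be told apart either.

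**Figure D1:**
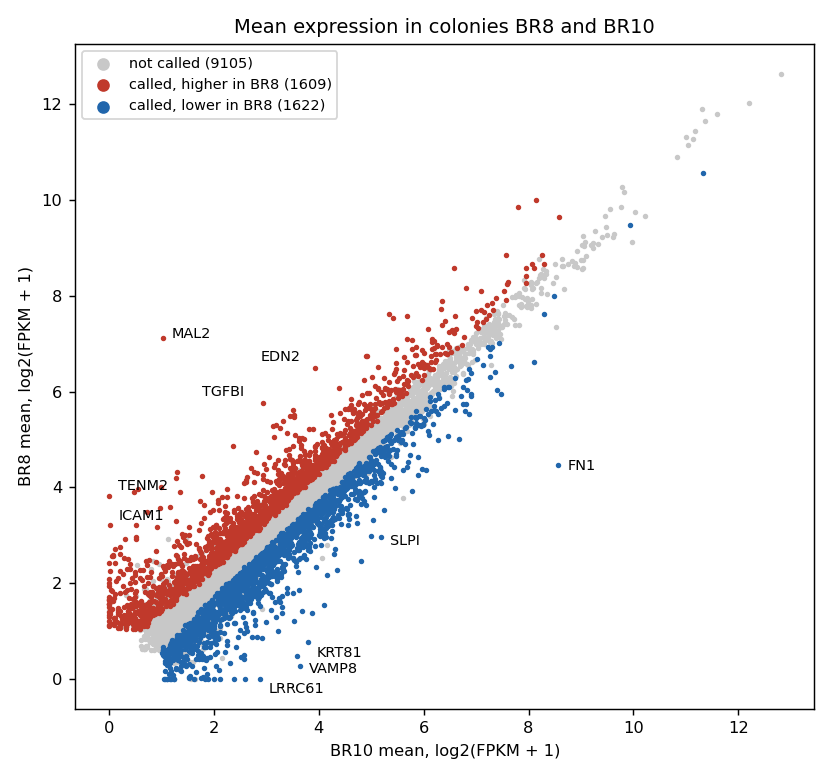
Mean log2(FPKM + 1) of the 2 BR10 libraries (horizontal axis) and the 2 BR8 libraries (vertical axis), 1 point for each of the 12336 genes tested, in red for the 1609 called higher in BR8, in blue for the 1622 called lower and in grey for the rest. MAL2 lies farthest above the main band and FN1 farthest below it.

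The highest rank among protein-coding genes higher in BR8 went to MAL2†, a membrane protein of vesicles bound for the apical surface of epithelial cells. It was at 137 and 141 FPKM in BR8 and 0.992 and 1.08 in BR10 (log2 difference 6.1 ± 0.13 (SE), adjusted p = 1.77e-07). BR8 thus held 134 times the level of BR10, and the 129 and 127 FPKM in BR16 were close to BR8, while DMSO had 0.22 and 0.147. TENM2, a teneurin that links cells across contacts, was at 12.2 and 14.1 FPKM in BR8 and 0.0056 and 0.00399 in BR10 (log2 difference 3.81 ± 0.11 (SE), adjusted p = 7.14e-07). ICAM1†, the adhesion receptor for leukocyte integrins, was at 8.66 and 7.78 FPKM in BR8 and 0 and 0.0238 in BR10 (log2 difference 3.19 ± 0.13 (SE), adjusted p = 3.22e-06), with at most 0.364 FPKM in any parental library. TGFBI, a matrix protein named for its induction by TGF-beta, was at 50.5 and 55.5 FPKM in BR8 and 6.76 and 6.64 in BR10 (log2 difference 2.81 ± 0.24 (SE), adjusted p = 8.93e-05), and in this case BR10 lay above the 2.01 and 2.3 FPKM of DMSO too. EDN2, a vasoactive peptide of the endothelin family, was at 98.9 and 79.3 FPKM in BR8 and 14.3 and 14.3 in BR10 (log2 difference 2.55 ± 0.11 (SE), adjusted p = 4.66e-06). LUM (lumican, a collagen-binding proteoglycan) reached 4.61 and 6.43 FPKM in BR8 and at most 0.363 FPKM in the other 8 libraries.

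Other genes among the 15 largest rises toward BR8 were TMEM40, ANXA8L1†, KRTAP2-3, NCALD† (neurocalcin delta, a calcium sensor), TMEM171, CGB8, FMO1† (a flavin-containing monooxygenase) and C1QTNF1, with log2 differences from 2.5 (C1QTNF1) to 3.42 (TMEM40). That no BR8 library overlapped a BR10 library was a condition for choosing these genes and is no result. ANXA8L1, KRTAP2-3 and CGB8 have near-identical copies elsewhere in the genome, so how reads were split among the copies is uncertain. Genes that do not code for protein were led by CERNA2 (3.01), LINC01338 (2.93), UCA1† (2.59) and FLJ22447† (2.59). LINC01338 stood at 17.3 and 17.4 FPKM in BR8 and 1.17 and 1.67 in BR10 and at most 1.07 FPKM in the remaining groups.

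Toward BR10, the widest gap was that of FN1 (fibronectin, at chr2:215360440-215436172, GRCh38), an extracellular matrix glycoprotein. It was at 20.3 and 21.9 FPKM in BR8 and 375 and 380.3 in BR10 (log2 difference -4.1 ± 0.13 (SE), adjusted p = 1.46e-06), 17.9 times lower in BR8. DMSO had 121 and 127 FPKM, BLU667 348 and 477 and BR16 345 and 331, so that BR8 was the lowest of the 5 groups. VAMP8, a SNARE protein of endosome and lysosome fusion, was at 0.115 and 0.30 FPKM in BR8 and 11.6 and 11.3 in BR10 (log2 difference -3.37 ± 0.13 (SE), adjusted p = 2.36e-06). KRT81, a hair keratin with near-identical relatives, was at 0.826 and 0.554 FPKM in BR8 and 10.4 and 15.3 in BR10 (log2 difference -3.02 ± 0.22 (SE), adjusted p = 4.08e-05), both colonies being below the 82.6 and 65.1 FPKM of DMSO. MLPH (melanophilin, which couples vesicles to a myosin motor) was at 1.88 and 1.95 FPKM in BR8 and 15.6 and 16.7 in BR10 (log2 difference -2.56 ± 0.10 (SE), adjusted p = 3.05e-06). LAPTM5, a lysosomal membrane protein, was at 1.51 and 1.63 FPKM in BR8 and 13.7 and 13.7 in BR10 (log2 difference -2.52 ± 0.16 (SE), adjusted p = 2.12e-05). TNFSF9, the ligand of the T cell costimulator 4-1BB, was at 1.71 and 1.64 FPKM in BR8 and 11.9 and 11.8 in BR10 (log2 difference -2.26 ± 0.17 (SE), adjusted p = 4.6e-05). SLPI, a secreted inhibitor of leukocyte proteases, was at 6.87 and 6.57 FPKM in BR8 and 32.5 and 38.1 in BR10 (log2 difference -2.23 ± 0.20 (SE), adjusted p = 0.000118) and was highest in BR10 of all 5 groups. Like it, GALNT3, an enzyme that starts mucin-type O-glycosylation, was at 0.364 and 0.367 FPKM in BR8 and 4.86 and 4.6 in BR10 (log2 difference -2.07 ± 0.11 (SE), adjusted p = 1.18e-05) and at most 0.703 FPKM elsewhere.

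LRRC61†, SLC1A1, HAS3† (a hyaluronan synthase), PID1, CA12, ENPP4 and FAT2† (an atypical cadherin) completed the 15 protein-coding genes that were lowest in BR8 relative to BR10, at log2 differences between -2.86 and -2.07. CA12, a membrane carbonic anhydrase, went from 27.1 and 23.1 FPKM in DMSO to 4.96 and 4.98 in BR10 and 0.28 and 0.357 in BR8. Outside protein-coding genes, AC016596.1 (-3.16), NMRAL2P (-2.33) and AC092868.1 (-2.02) were among the lowest. MIR6819 had 0 reads in BR8 and 5 and 7 in BR10, at least 3.54-fold higher in BR10 at a floor of 3 reads over both BR8 libraries. NMRAL2P, a pseudogene, was at 1.23 and 1.38 FPKM in BR8 and 11 and 10.2 in BR10, against at most 0.746 FPKM in the parental and BR16 libraries.

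**Figure D2:**
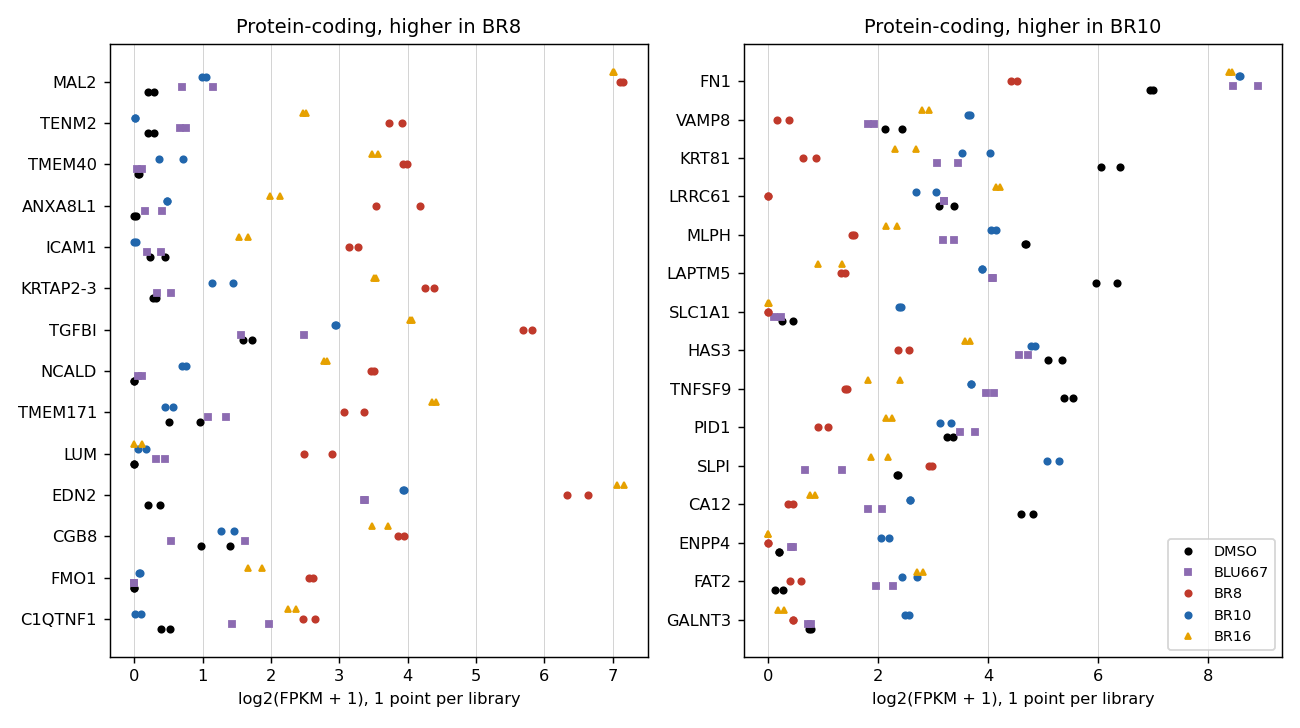
Protein-coding genes from the 15 with the largest log2 differences each way, as log2(FPKM + 1) with 1 point per library in all 5 groups (2 libraries each). In the left panel every red BR8 point lies to the right of both blue BR10 points, and in the right panel to their left. The choice of genes required this. BR16 points lie near BR8 for MAL2 and EDN2 and near BR10 for FN1.

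A further set of genes had no read at all in 1 colony and a mean of at least 1 FPKM in the other. There were 61 such genes silent in BR8 and 50 silent in BR10, most of them shorter than 300 bases (51 and 46), a size at which few reads make 1 FPKM. Protein-coding genes made up 8 of the 61 and 1 of the 50, and these 9 were named after their values were seen. SLC1A1, a transporter of glutamate and cysteine, had 280 and 377 reads in BR10, at least 195-fold higher than BR8 at a floor of 3 reads over the 2 BR8 libraries (log2 difference -2.39 ± 0.13 (SE), adjusted p = 1.3e-05). ENPP4, an ectonucleotidase, had 268 and 329 reads in BR10, at least 178-fold higher. LRRC61† had 240 and 449, at least 199-fold higher, while DMSO, BLU667 and BR16 held 7.61 to 17.4 FPKM; it lies in the last of the chromosome 7 segments described below. For SLC1A1 and ENPP4 the order was another one: BR16 had at most 0.0141 FPKM and the parental libraries at most 0.366, so BR10 stood above every other group. The secreted ribonuclease RNASE1 and RTP3 were likewise highest in BR10, with 1.15 and 1.05 FPKM of RNASE1 and 1.36 and 1.37 FPKM of RTP3. PTPRN2, ARHGDIB and ASRGL1† completed the group in BR8, and PTPRN2 lies in the same chromosome 7 segment as LRRC61†. In the other direction BBS5†, a subunit of the BBSome that carries cargo in cilia, had no read in BR10 and 1.12 and 1.46 FPKM in BR8, at least 74-fold higher (log2 difference 1.19 ± 0.12 (SE), adjusted p = 0.000204). DMSO (0.888 and 0.777) and BR16 (2.11 and 2.2) both held BBS5† reads.

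The differences were not spread evenly along the genome. On chromosome 7, 62.8% of 591 tested genes were called, against 18.3% (chromosome 14) to 31.6% (chromosome 2) on the other nuclear chromosomes and 1 of 33 mitochondrial genes (3.03%). To locate the runs, the genes with a mean of at least 5 FPKM were ordered along each chromosome and divided into runs of similar difference by penalised least squares, which gave 30 runs in all. Runs of at least 15 genes with a median difference of at least 0.3 either way are described here as segments, of which there were 6. They were chosen by the differences themselves, so their counts are descriptions and carry no test.

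On chromosome 2, 55 genes from BARD1 to DTYMK (chr2:214725646-241686991, GRCh38) had a median of -0.96, and 53 of the 55 were lower in BR8. Of the 115 tested genes there, 103 were called lower and 0 higher. The first segment of chromosome 7, from FAM20C to CHCHD2 (chr7:192969-56106576), held 122 genes with a median of 0.53, 114 of them higher in BR8. Next came 29 genes from ZNF138 to GTF2I (chr7:64794388-74760692), all 29 higher in BR8, with a median of 1.27, a level ratio of 2.42. From the next gene counted the sign turned, and 19 genes from CASTOR2 to CLDN12 (chr7:74964818-90513402) had a median of -0.74, with 18 lower in BR8. Farther along, 66 genes from THAP5 to ESYT2 (chr7:108554543-158830253) had a median of -0.90, and 65 were lower. Chromosome 17 held 122 genes from RPS6KB1 to METRNL (chr17:59893046-83095119) with a median of 0.56, of which 113 were higher in BR8.

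Each library of BR8 gave the same picture against each library of BR10. The chromosome 2 segment lay at -0.93, -1.0, -0.93 and -0.97 in the 4 pairs of libraries, and the segment from ZNF138 to GTF2I at 1.33, 1.27, 1.24 and 1.26. Between replicates of BR8 or of BR10 the 6 medians lay between -0.10 and 0.04. Against DMSO, BR8 had medians of -0.97 on chromosome 2, 0.64, 1.22, -0.61 and -0.83 along chromosome 7, and 0.40 on chromosome 17. In the same order BR10 had -0.02, 0.12, 0.04, 0.14, 0.03 and -0.11, and BR16 had -0.05, -0.11, 0.04, 0.00, -0.03 and 0.11. On all 6 segments the BR8 median lay farther from DMSO than those of BR10 and BR16. Parental cells after 24 h in BLU667 stood at -0.15, -0.18, -0.18, 0.25, -0.08 and -0.31. DNA was not analysed here.

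**Figure D3:**
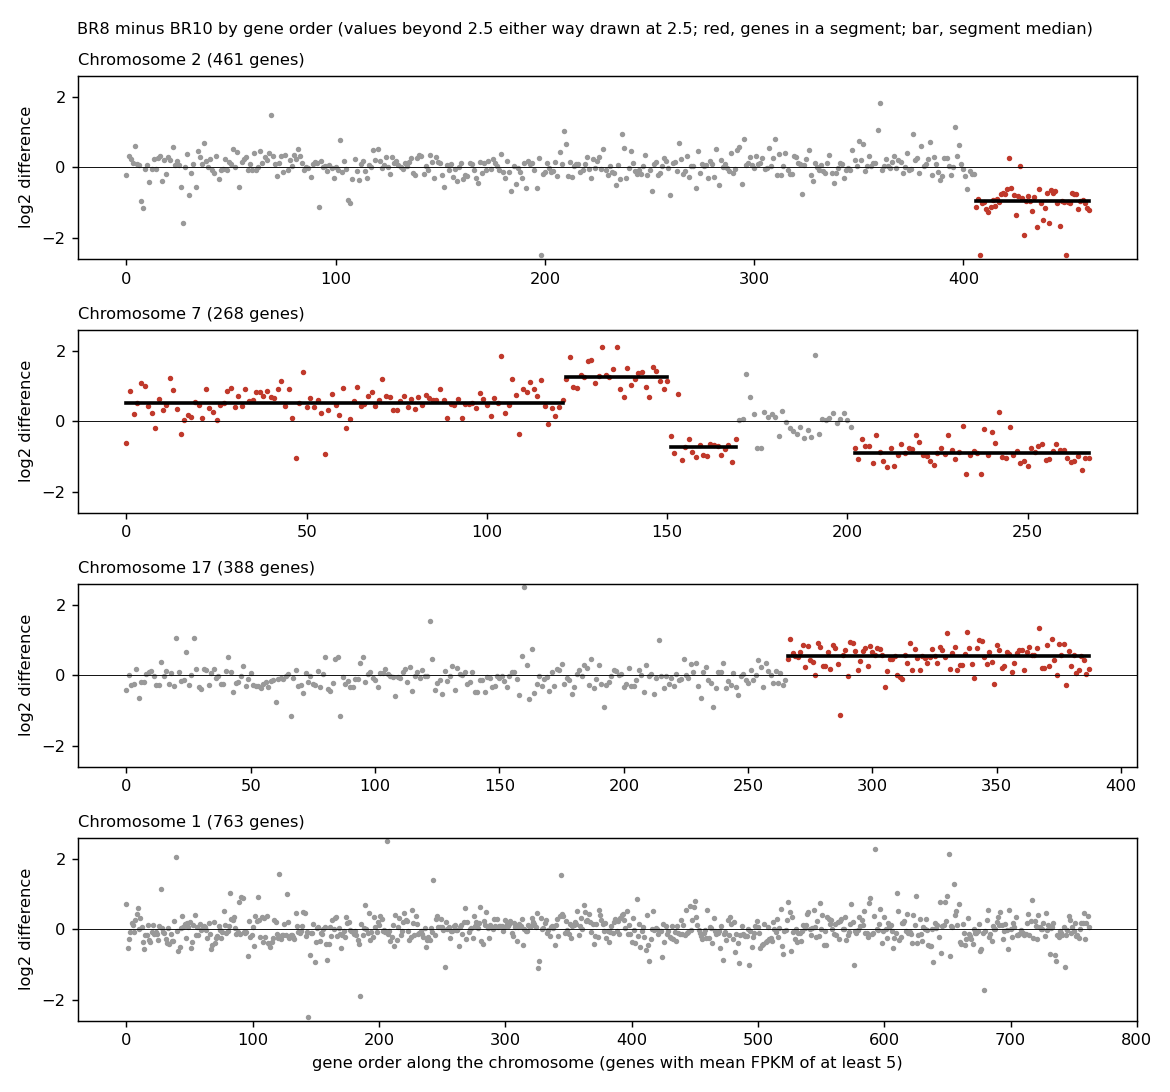
Log2 difference (BR8 minus BR10) of each gene with a mean of at least 5 FPKM, in gene order along chromosomes 2, 7, 17 and, for comparison, 1; values beyond 2.5 either way are drawn at 2.5. Red points are genes in the 6 segments and black bars their medians, which step from 1.27 to -0.74 between neighbouring segments of chromosome 7, while chromosome 1 stays around 0.

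**Figure D4:**
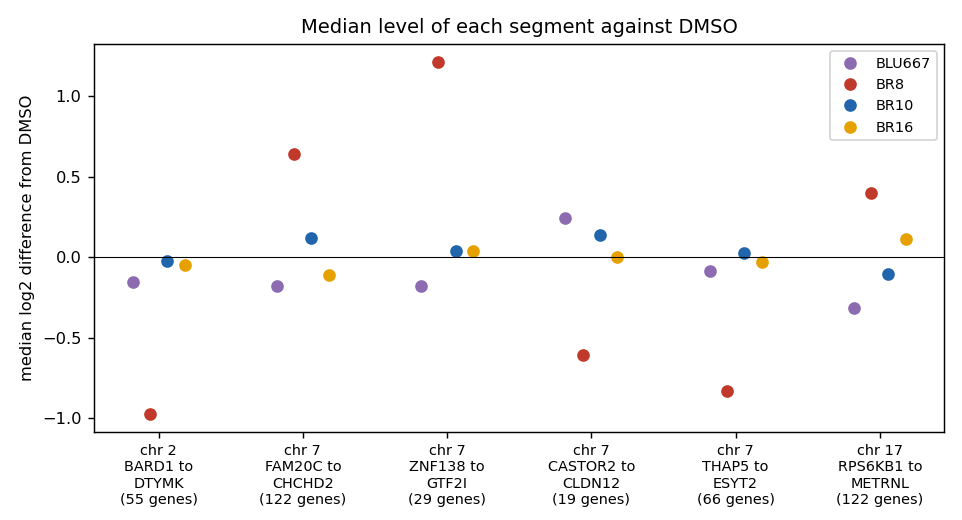
Median log2 difference from DMSO of the genes of each segment in parental cells given BLU667 for 24 h and in the 3 colonies. BR8 (red) lies between -0.97 and 1.22, while BR10 (blue) and BR16 (orange) lie between -0.11 and 0.14.

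Of the 805 tested genes inside the segments 561 were called (69.7%), and of the 11531 outside 2670 (23.2%), so that 17.4% of all called genes lay inside. Some genes went well beyond their segment. On chromosome 2, FN1 lay -3.14 from its segment's median, and IRS1, the adaptor of insulin and IGF receptors, was at 1.59 and 1.55 FPKM in BR8 and 8.5 and 9.1 in BR10 (log2 difference -1.93 ± 0.11 (SE), adjusted p = 1.62e-05). ITM2C was at 4.6 and 5.57 FPKM in BR8 and 17.2 and 19.9 in BR10 (log2 difference -1.68 ± 0.15 (SE), adjusted p = 0.000104). On chromosome 7, IGFBP3, which binds insulin-like growth factors in the extracellular space, was at 983 and 1061 FPKM in BR8 and 263 and 301 in BR10 (log2 difference 1.86 ± 0.20 (SE), adjusted p = 0.000262), 1.32 above the median of its segment. SBDS†, a ribosome assembly factor with a closely similar pseudogene in the same region, was at 176 and 191 FPKM in BR8 and 42.5 and 41 in BR10 (log2 difference 2.11 ± 0.13 (SE), adjusted p = 1.96e-05). DNAJB6, a chaperone, was at 3.67 and 3.76 FPKM in BR8 and 11.4 and 11 in BR10 (log2 difference -1.37 ± 0.08 (SE), adjusted p = 1.99e-05). Against the run of its neighbours on chromosome 17, MILR1 was lower in BR8, at 4.82 and 6.05 FPKM in BR8 and 13.5 and 12.5 in BR10 (log2 difference -1.13 ± 0.10 (SE), adjusted p = 0.000133), whereas SMURF2†, a ubiquitin ligase of TGF-beta signalling, was higher at 24.5 and 25 FPKM in BR8 and 12.6 and 12.2 in BR10 (log2 difference 0.94 ± 0.08 (SE), adjusted p = 7.71e-05).

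**Figure D5:**
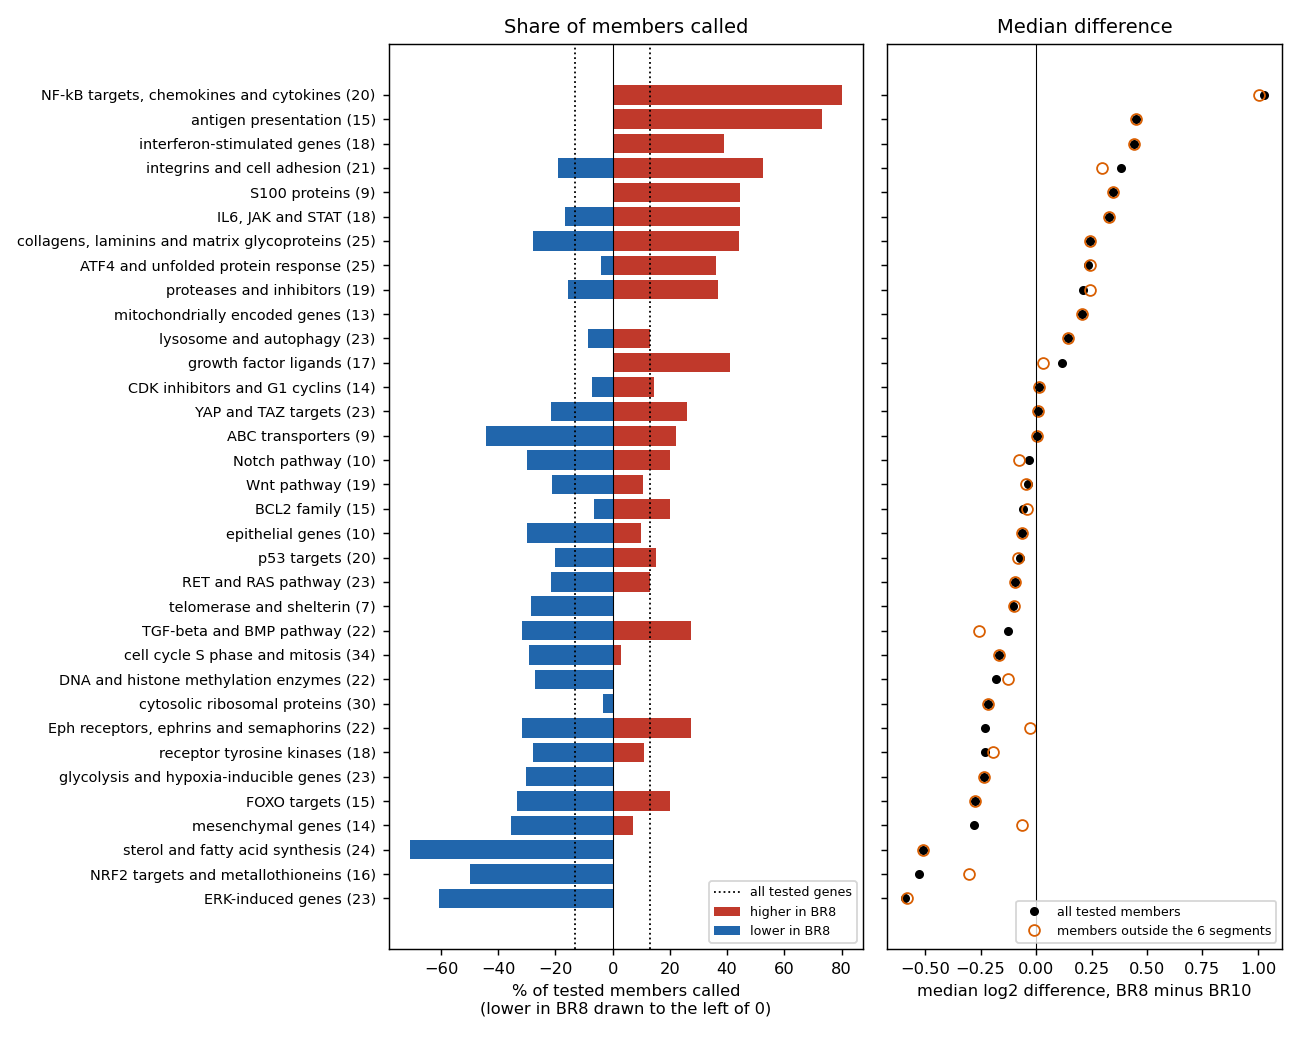
For each gene list with at least 5 tested members (number in brackets), the left panel gives the percentage of members called higher (red, right) and lower (blue, left) in BR8, with dotted lines at the 13.0% and 13.1% of all genes tested. The right panel gives the median log2 difference of all tested members (black) and of those outside the 6 segments (open circles); NF-kB targets lie highest at 1.03 and ERK-induced genes lowest at -0.59.

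Genes of the cascade below RET were mixed, while most of the ERK-induced genes tested were lower in BR8. Among 23 tested members of the RET and RAS pathway, 3 were higher and 5 lower in BR8, with a median of -0.10 against -0.01 over all genes tested. Leaving out each library gave 1, 2, 1 and 2 higher and 1, 3, 3 and 2 lower. SHC1†, an adaptor that recruits GRB2 to receptors, was at 29 and 28.9 FPKM in BR8 and 49.9 and 58.8 in BR10 (log2 difference -0.88 ± 0.15 (SE), adjusted p = 0.00277). GRB2 itself was at 38.8 and 36.4 FPKM in BR8 and 24.7 and 26.5 in BR10 (log2 difference 0.54 ± 0.08 (SE), adjusted p = 0.00185), close to its chromosome 17 segment (0.56). Of 23 tested ERK-induced genes 14 were lower in BR8 and 0 higher (median -0.59), and at an unadjusted p below 0.05 the counts were 16 and 0, as with voom. Over all genes tested, an unadjusted p below 0.05 held for 18.9% higher and 19.6% lower, and voom called 13.0% higher and 17.7% lower, the shares against which such counts are to be read here and for the lists that follow. SPRY2, a feedback inhibitor of receptor signalling, was at 2.21 and 2.72 FPKM in BR8 and 10.2 and 10.5 in BR10 (log2 difference -1.72 ± 0.11 (SE), adjusted p = 2.65e-05). DUSP5, a nuclear phosphatase of ERK, was at 18.9 and 17.3 FPKM in BR8 and 57.2 and 59 in BR10 (log2 difference -1.63 ± 0.18 (SE), adjusted p = 0.000361). ETV5†, an ETS transcription factor, was at 2.78 and 2.65 FPKM in BR8 and 9.9 and 9.28 in BR10 (log2 difference -1.51 ± 0.08 (SE), adjusted p = 1.3e-05). EMP1, an epithelial membrane protein, was at 0.0798 and 0.053 FPKM in BR8 and 2.59 and 2.73 in BR10 (log2 difference -1.78 ± 0.09 (SE), adjusted p = 1.16e-05).

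These genes stood in a different relation to the parental cells from one to the next. DMSO held 18.6 and 17.8 FPKM of SPRY2 and BLU667 3.44 and 2.63, so that BR8 was near the treated and BR10 between the treated and the untreated cells. EMP1 had 35.9 and 34.8 FPKM in DMSO and 0.058 and 0.0734 in BLU667 cells, and of the colonies BR10 alone was above 1 FPKM. DUSP5, by contrast, was lowest after 24 h of BLU667 (6.8 and 3.87), near DMSO (21.2 and 19.4) in BR8 and highest in BR10. CCND1†, which encodes cyclin D1, had 81.2 and 70.6 FPKM in BR8 and 109 and 119 in BR10 (log2 difference -0.58 ± 0.09 (SE), adjusted p = 0.00201), both far above the 3.99 and 3.8 FPKM of BLU667 cells.

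Receptors and their ligands differed gene by gene. Of 18 tested receptor tyrosine kinases 2 were higher and 5 lower in BR8 (2, 1, 2 and 2 higher and 3, 4, 3 and 3 lower on leaving out each library). EGFR†, the receptor of the EGF family, was at 96.8 and 97.5 FPKM in BR8 and 49.3 and 51.8 in BR10 (log2 difference 0.93 ± 0.07 (SE), adjusted p = 6.76e-05), 0.40 above its chromosome 7 segment. DMSO had 18.8 and 19.6 FPKM and BR16 161 and 161, so that all 3 colonies exceeded DMSO and BR10 least, while BLU667 cells, at 63.1 and 59.1, also lay above BR10. MET, the receptor of hepatocyte growth factor, was at 30.4 and 31.3 FPKM in BR8 and 76.2 and 76.9 in BR10 (log2 difference -1.28 ± 0.10 (SE), adjusted p = 6.69e-05), with a median of -0.90 for its segment. EPHA4†, an Eph receptor in the chromosome 2 segment, was at 0.904 and 1.3 FPKM in BR8 and 2.62 and 2.59 in BR10 (log2 difference -0.79 ± 0.14 (SE), adjusted p = 0.00405). Of 17 tested growth factor ligands 7 were higher in BR8 and 0 lower (8 and 4 at an unadjusted p below 0.05, 7 and 3 with voom), with a median of 0.12, and 0, 0, 1 and 0 were lower on leaving out each library. EGFR ligands were among the 7. EREG (epiregulin) was at 5.32 and 4.43 FPKM in BR8 and 0.0216 and 0.0925 in BR10 (log2 difference 2.47 ± 0.20 (SE), adjusted p = 6.8e-05), AREG (amphiregulin) at 3.66 and 3.46 FPKM in BR8 and 0.225 and 0.187 in BR10 (log2 difference 1.92 ± 0.11 (SE), adjusted p = 1.87e-05) and BTC (betacellulin) at 2.91 and 3.1 FPKM in BR8 and 1.01 and 1.13 in BR10 (log2 difference 0.95 ± 0.11 (SE), adjusted p = 0.000422). EREG was at 4.47 and 6.4 FPKM in DMSO, near BR8, whereas AREG exceeded 1 FPKM in BR8 alone. PDGFD†, a ligand of the PDGF receptors, was at 7.99 and 8.04 FPKM in BR8 and 2.92 and 3.04 in BR10 (log2 difference 1.18 ± 0.12 (SE), adjusted p = 0.000217).

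Most tested genes that answer NF-kB, a family of transcription factors released from inhibitors by cytokines and stress, were higher in BR8. Of 20 tested members of this list, which includes chemokines and cytokines, 16 were higher and 0 lower (18 and 0 at an unadjusted p below 0.05, 17 and 0 with voom). The median of 1.03 was 1.00 without the member inside a segment. Stretches of 4 called members and of ICAM1† are printed because their promoters hold the letters of an NF-kB site; both the genes and the motifs were picked after values were seen. RefSeq promoters (GRCh38.p14, the 250 bases before the start) were searched on both strands for the longer kB motif, of 10 letters, and for the shorter GGAANTTCC, which can overlap. The longer one is in capitals in the first 4 stretches and the shorter in the last; each stretch reads 5′ to 3′ on the gene's strand.
BIRC3: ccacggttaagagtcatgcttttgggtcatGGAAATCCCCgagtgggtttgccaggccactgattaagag
TNFAIP3: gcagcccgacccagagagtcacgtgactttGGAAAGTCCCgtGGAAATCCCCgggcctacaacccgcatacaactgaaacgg
IL6: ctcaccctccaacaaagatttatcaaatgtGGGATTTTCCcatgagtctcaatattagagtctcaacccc
IL32: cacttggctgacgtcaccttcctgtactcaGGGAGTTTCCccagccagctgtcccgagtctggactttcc
ICAM1: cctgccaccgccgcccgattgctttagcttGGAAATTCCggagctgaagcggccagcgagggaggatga
They lie at chr11:102317255-102317324, chr6:137867162-137867243, chr7:22727097-22727166, chr16:3065274-3065343 and chr19:10270904-10270972, all on the plus strand. The longer motif occurred in 8 of the 13 called members with a promoter in the table (61.5%), in 3.5% of 1085 genes called higher in BR8, in 1.06% of 1226 called lower, in 2.02% of the 8713 tested genes with a promoter and in 1.73% of all 27305 promoters. For GGAANTTCC the shares were 38.5%, 1.94%, 0.245%, 0.918% and 0.831%. A match describes letters only. The list consists of NF-kB targets, chemokines and cytokines, and members not called were not searched as a set. The called members also count among the 1085 genes called higher in BR8.

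The values behind those members were as follows. BIRC3, an inhibitor of apoptosis that is itself a classical NF-kB target, was at 17.4 and 18 FPKM in BR8 and 5.03 and 5.38 in BR10 (log2 difference 1.59 ± 0.23 (SE), adjusted p = 0.0013). TNFAIP3†, the deubiquitinating enzyme A20 that switches NF-kB off, was at 4.34 and 5.04 FPKM in BR8 and 1.46 and 1.51 in BR10 (log2 difference 1.19 ± 0.13 (SE), adjusted p = 0.000279). IL-6 is a cytokine that signals through gp130 and STAT3, and its gene IL6† was at 30.3 and 32.8 FPKM in BR8 and 11.1 and 11.8 in BR10 (log2 difference 1.39 ± 0.15 (SE), adjusted p = 0.000346). Its chromosome 7 segment had a median of 0.53, which leaves 0.86. IL32†, a proinflammatory cytokine, was at 103 and 76.8 FPKM in BR8 and 31.8 and 36.4 in BR10 (log2 difference 1.36 ± 0.17 (SE), adjusted p = 0.000582). In DMSO IL32† had 0.941 and 1.0 FPKM and IL6† 0.86 and 0.764, so both colonies lay above the parental cells, BR8 the more so. CCL2, a chemokine for monocytes, was at 20.5 and 17.5 FPKM in BR8 and 5.67 and 5.99 in BR10 (log2 difference 1.54 ± 0.15 (SE), adjusted p = 0.000156), with the highest values in BR16 (50.9 and 51.3). CSF2 (GM-CSF) was at 2.53 and 5.13 FPKM in BR8 and 0.472 and 0.672 in BR10 (log2 difference 1.57 ± 0.24 (SE), adjusted p = 0.00174), and its BR8 libraries differed from each other by more than those of BR10. IL11, a cytokine of the IL-6 family, was at 7.18 and 6.87 FPKM in BR8 and 1.46 and 2.01 in BR10 (log2 difference 1.56 ± 0.13 (SE), adjusted p = 8.93e-05). Chemokines CXCL1, CXCL2 and CXCL8, the inhibitor NFKBIA and the subunits NFKB1, NFKB2 and RELB were among the 16, and RELA, REL, NFKBIE and CSF1 were not called. BCL2A1, an antiapoptotic BCL2 relative, was at 3.97 and 4.74 FPKM in BR8 and 0 and 0.162 in BR10 (log2 difference 2.31 ± 0.18 (SE), adjusted p = 6.61e-05), with the parental libraries at 0 to 0.0990 FPKM.

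Most tested genes of antigen presentation were higher in BR8 too. Of 15 tested members 11 were higher in BR8 and 0 lower (11 and 0 at an unadjusted p below 0.05, 10 and 0 with voom), with a median of 0.45, and 8, 8, 7 and 8 were higher on leaving out each library. HLA-B†, a class I heavy chain, was at 137 and 131 FPKM in BR8 and 53.3 and 54.3 in BR10 (log2 difference 1.3 ± 0.12 (SE), adjusted p = 0.00013). HLA-C was also called, and reads of these similar class I genes may be split between them. PSMB9†, a catalytic subunit of the immunoproteasome, was at 3.57 and 3.83 FPKM in BR8 and 1.35 and 1.29 in BR10 (log2 difference 1.02 ± 0.17 (SE), adjusted p = 0.0027), and ERAP1†, which trims peptides in the endoplasmic reticulum, at 28.6 and 30.6 FPKM in BR8 and 16.2 and 15.4 in BR10 (log2 difference 0.87 ± 0.08 (SE), adjusted p = 0.000114). Of 18 tested interferon-stimulated genes 7 were higher and 0 lower (10 and 2 at an unadjusted p below 0.05, 9 and 1 with voom), and 6, 4, 4 and 7 were higher on leaving out each library. IFI6 was at 20.4 and 16.8 FPKM in BR8 and 8.73 and 8.66 in BR10 (log2 difference 1.01 ± 0.13 (SE), adjusted p = 0.000629), whereas IFIT1, DDX58 and ISG15 were not called. In the IL-6, JAK and STAT list 8 of 18 were higher and 3 lower (1, 1, 1 and 0 lower on leaving out each library). Among the 8 were the ligands IL6† and IL11 and the shared receptor subunit IL6ST† (gp130), at 62.3 and 60.1 FPKM in BR8 and 30.9 and 29 in BR10 (log2 difference 1.01 ± 0.14 (SE), adjusted p = 0.0011).

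Matrix and adhesion genes were split between the colonies. Of 25 tested collagens, laminins and matrix glycoproteins 11 were higher in BR8 and 7 lower, with 7 not called. COL4A1, a chain of basement membrane collagen, was at 397 and 372 FPKM in BR8 and 91.1 and 97.2 in BR10 (log2 difference 2.02 ± 0.08 (SE), adjusted p = 3.15e-06). BR16 was near BR8 for COL4A1 (421 and 418). Of 21 integrins and adhesion molecules 11 were higher and 4 lower. ITGB6†, the beta chain of the integrin that activates latent TGF-beta, was at 4.94 and 4.52 FPKM in BR8 and 0.198 and 0.235 in BR10 (log2 difference 2.24 ± 0.15 (SE), adjusted p = 3.31e-05), and MCAM† at 27.1 and 25.2 FPKM in BR8 and 11.9 and 12.4 in BR10 (log2 difference 1.04 ± 0.12 (SE), adjusted p = 0.000393). NCAM1†, an adhesion molecule of the immunoglobulin family, went the other way, at 1.62 and 2.01 FPKM in BR8 and 5.29 and 5.01 in BR10 (log2 difference -1.13 ± 0.11 (SE), adjusted p = 0.000148), with at most 0.0714 FPKM in any parental library. Of 14 mesenchymal genes 5 were lower in BR8 and 1 higher. Besides FN1 these were TNC† (tenascin C) at 8.65 and 9.25 FPKM in BR8 and 29.4 and 34.4 in BR10 (log2 difference -1.72 ± 0.19 (SE), adjusted p = 0.000313), CDH2† (N-cadherin) at 9.41 and 10.2 FPKM in BR8 and 23.7 and 22.3 in BR10 (log2 difference -1.15 ± 0.09 (SE), adjusted p = 7.5e-05), TAGLN and MMP2. The 1 higher was SPARC†, a secreted collagen-binding glycoprotein, at 451 and 471 FPKM in BR8 and 185 and 194 in BR10 (log2 difference 1.28 ± 0.09 (SE), adjusted p = 3.33e-05), and the factors SNAI1, SNAI2, TWIST1 and ZEB1 were not called. Epithelial genes called lower in BR8 were PKP2, JUP and KRT7. Over the fits run their log2 differences were -1.19 to -0.89, -0.77 to -0.59 and -1.58 to -0.53. JUP and KRT7 were not called in all fits. Of 10 epithelial genes 3 were lower (2, 3, 3 and 1 on leaving out each library) and 1 higher, CLDN1 (claudin 1, of tight junctions), at 139 and 135 FPKM in BR8 and 49 and 51.8 in BR10 (log2 difference 1.42 ± 0.24 (SE), adjusted p = 0.00276).

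Among 19 tested proteases and inhibitors 7 were higher in BR8 and 3 lower (2, 1, 1 and 1 lower on leaving out each library). MMP7 (matrilysin) was at 3.4 and 3.58 FPKM in BR8 and 0.346 and 0.474 in BR10 (log2 difference 1.67 ± 0.11 (SE), adjusted p = 2.9e-05) and had no read in DMSO. F3, the tissue factor that starts coagulation, was at 9.06 and 9.31 FPKM in BR8 and 2.28 and 2.74 in BR10 (log2 difference 1.54 ± 0.12 (SE), adjusted p = 5.95e-05), and ADAMTS1, a metalloprotease of the matrix, at 35.5 and 36.4 FPKM in BR8 and 13 and 13.1 in BR10 (log2 difference 1.39 ± 0.07 (SE), adjusted p = 9.53e-06). YAP and TAZ targets were called 6 higher and 5 lower of 23, and the TGF-beta and BMP pathway 6 higher and 7 lower of 22. TGFB2†, a TGF-beta ligand, was at 10.5 and 10.4 FPKM in BR8 and 38.1 and 35.9 in BR10 (log2 difference -1.73 ± 0.10 (SE), adjusted p = 2.02e-05), BMP4 at 1.57 and 1.85 FPKM in BR8 and 6.95 and 8.02 in BR10 (log2 difference -1.65 ± 0.12 (SE), adjusted p = 4.87e-05) and LTBP3, which stores latent TGF-beta, at 1.34 and 1.37 FPKM in BR8 and 5.14 and 6.68 in BR10 (log2 difference -1.55 ± 0.14 (SE), adjusted p = 0.000128). All 3 were higher in BR10. In DMSO TGFB2† had 6.1 and 7.83 FPKM and BMP4 1.92 and 1.44, both near BR8, while LTBP3 had 17.3 and 13.3, above both colonies.

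Most tested genes of lipid synthesis were lower in BR8. Of 24 tested members of the sterol and fatty acid synthesis list 17 were lower and 0 higher (19 and 1 at an unadjusted p below 0.05, 19 and 0 with voom), with a median of -0.51. SCD, the desaturase that makes monounsaturated fatty acids, was at 64.6 and 64.5 FPKM in BR8 and 168 and 166 in BR10 (log2 difference -1.36 ± 0.17 (SE), adjusted p = 0.000604). MSMO1, a methylsterol oxidase of cholesterol synthesis, was at 23.3 and 24.6 FPKM in BR8 and 63.5 and 53.6 in BR10 (log2 difference -1.25 ± 0.15 (SE), adjusted p = 0.000582), and FDPS†, which makes farnesyl diphosphate, at 12.3 and 15.1 FPKM in BR8 and 28.5 and 26.6 in BR10 (log2 difference -0.97 ± 0.15 (SE), adjusted p = 0.00189). INSIG1, which holds the sterol-sensing SREBP complex in the endoplasmic reticulum, was at 10.9 and 12.2 FPKM in BR8 and 27.9 and 26.4 in BR10 (log2 difference -1.17 ± 0.17 (SE), adjusted p = 0.00121), -0.27 from its chromosome 7 segment. DMSO stood at 161 and 148 FPKM for SCD, near BR10, but at 17.1 and 19.3 for MSMO1, near BR8. Leaving out each library gave 11, 11, 10 and 11 lower members.

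Of 16 tested targets of NRF2, the transcription factor of the antioxidant response, together with metallothioneins, 8 were lower in BR8 and 0 higher (9 and 1 at an unadjusted p below 0.05, 9 and 0 with voom). TXNRD1 (thioredoxin reductase) was at 60.1 and 61.5 FPKM in BR8 and 178 and 177 in BR10 (log2 difference -1.53 ± 0.12 (SE), adjusted p = 5.88e-05), and BR10 had the highest level of the 5 groups. TKT (transketolase), an enzyme of the pentose phosphate pathway, was at 31.6 and 34.2 FPKM in BR8 and 64.1 and 71.2 in BR10 (log2 difference -1.02 ± 0.13 (SE), adjusted p = 0.000754). The list's median was -0.53, and -0.30 without AKR1B10, which lies in a segment. Glycolysis and hypoxia-inducible genes were called 7 lower and 0 higher of 23 (10 and 0 at an unadjusted p below 0.05 and with voom), and 5, 5, 5 and 4 were lower on leaving out each library. CA12 led them, followed by NDRG1 at 6.71 and 7.17 FPKM in BR8 and 12 and 12.5 in BR10 (log2 difference -0.74 ± 0.11 (SE), adjusted p = 0.00144). HK2† (hexokinase 2) was at 11.5 and 11.2 FPKM in BR8 and 17.7 and 19.7 in BR10 (log2 difference -0.67 ± 0.10 (SE), adjusted p = 0.00131), both colonies being under the 32.6 and 30.8 FPKM of DMSO. In the ATF4 and unfolded protein response list 9 of 25 were higher and 1 lower (5, 6, 5 and 7 higher and 1, 1, 2 and 1 lower on leaving out each library). SLC3A2, a subunit of amino acid exchangers, was at 97.1 and 79 FPKM in BR8 and 40.4 and 46.2 in BR10 (log2 difference 1.0 ± 0.12 (SE), adjusted p = 0.000418), and its partner SLC7A5† at 305 and 243 FPKM in BR8 and 125 and 148 in BR10 (log2 difference 1.0 ± 0.13 (SE), adjusted p = 0.000745). DMSO had 79.5 and 72.8 FPKM of SLC3A2 and 301 and 271 of SLC7A5†, so BR10 was the group that lay lower. XBP1, a transcription factor of the unfolded protein response, was at 41 and 37.4 FPKM in BR8 and 20.4 and 24.1 in BR10 (log2 difference 0.79 ± 0.10 (SE), adjusted p = 0.000782).

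Of the S phase and mitosis genes tested 32.4% were called, against 26.2% of all genes tested. The list for S phase and mitosis had 34 tested genes, with 10 lower and 1 higher in BR8 (median -0.17), and 3, 6, 5 and 3 were lower and 0, 0, 0 and 0 higher on leaving out each library. MKI67, the proliferation marker, was at 15.4 and 17.5 FPKM in BR8 and 25.3 and 32.2 in BR10 (log2 difference -0.76 ± 0.13 (SE), adjusted p = 0.00271), and MCM4, a subunit of the replicative helicase, at 57.6 and 60.9 FPKM in BR8 and 100.1 and 107 in BR10 (log2 difference -0.79 ± 0.08 (SE), adjusted p = 0.000244). After 24 h of BLU667 parental cells had 0.621 and 0.723 FPKM of MKI67 and under DMSO 66.7 and 66, so that both colonies lay between. CDK6†, the kinase partner of D cyclins on chromosome 7, was at 32 and 28.7 FPKM in BR8 and 11.8 and 11.1 in BR10 (log2 difference 1.34 ± 0.12 (SE), adjusted p = 0.000127) and lay in the part of that chromosome outside the segments. TERF1, a telomere-binding protein of shelterin, was at 11.4 and 11 FPKM in BR8 and 19.2 and 18.5 in BR10 (log2 difference -0.70 ± 0.13 (SE), adjusted p = 0.00546), and of the 7 tested telomerase and shelterin genes 2 were lower and 0 higher (3 and 0 at an unadjusted p below 0.05, 2 and 0 with voom). The share called was 28.6%, close to the 26.2% of all genes tested, and only 1 of the 2 lay outside the segments. Of 22 DNA and histone methylation enzymes 6 were lower in BR8 and 0 higher (11 and 1 at an unadjusted p below 0.05, 11 and 0 with voom), and 2, 4, 3 and 3 were lower on leaving out each library. The share of these enzymes called, 27.3%, was also close to that of all genes tested. EZH2, a histone H3 methyltransferase, was at 8.39 and 7.68 FPKM in BR8 and 14.7 and 13 in BR10 (log2 difference -0.71 ± 0.10 (SE), adjusted p = 0.000925), within its chromosome 7 segment at -0.90. BCL2 was at 5.81 and 5.08 FPKM in BR8 and 3.55 and 3.4 in BR10 (log2 difference 0.52 ± 0.10 (SE), adjusted p = 0.0043), both above 0.646 and 0.656 FPKM in DMSO.

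Of 9 tested ABC transporters, which export drugs and lipids, 4 were lower in BR8 and 2 higher (2, 2, 3 and 2 lower and 0, 1, 2 and 0 higher on leaving out each library). ABCB1, the multidrug transporter P-glycoprotein, was at 1.72 and 1.7 FPKM in BR8 and 4.55 and 4.71 in BR10 (log2 difference -1.05 ± 0.10 (SE), adjusted p = 0.000119), with 0.464 and 0.37 FPKM in DMSO and a segment median of -0.74. ABCC3 was at 3.57 and 3.72 FPKM in BR8 and 7.55 and 7.78 in BR10 (log2 difference -0.90 ± 0.10 (SE), adjusted p = 0.000301). Developmental pathways were mixed. In the Wnt list 2 of 19 were higher and 4 lower, with LGR5†, a receptor for R-spondins, at 0.314 and 0.305 FPKM in BR8 and 2.54 and 2.73 in BR10 (log2 difference -1.47 ± 0.12 (SE), adjusted p = 6.97e-05), and the BR10 level was near that of DMSO (2.63 and 3.28). Of 10 Notch genes 2 were higher and 3 lower (2, 1, 2 and 1 lower on leaving out each library). NOTCH3, a receptor, was at 1.42 and 1.14 FPKM in BR8 and 0.105 and 0.136 in BR10 (log2 difference 1.02 ± 0.12 (SE), adjusted p = 0.000485), and HES1, a target of the pathway, at 1.49 and 2.04 FPKM in BR8 and 4.83 and 5.0 in BR10 (log2 difference -1.1 ± 0.13 (SE), adjusted p = 0.00048). SMO†, the signal transducer of Hedgehog, was at 3.42 and 3.08 FPKM in BR8 and 7.92 and 8.53 in BR10 (log2 difference -1.12 ± 0.10 (SE), adjusted p = 9.78e-05) in its chromosome 7 segment (-0.90). Of 22 Eph receptors, ephrins and semaphorins 6 were higher and 7 lower, and 4 of the 7 lay outside the segments. EFNB1, an ephrin, was at 23 and 19.3 FPKM in BR8 and 7.64 and 10.9 in BR10 (log2 difference 1.12 ± 0.17 (SE), adjusted p = 0.00171). Of 15 FOXO targets 3 were higher (1, 1, 1 and 1 on leaving out each library) and 5 lower. Of 20 p53 targets 3 were higher (1, 2, 1 and 3 on leaving out each library) and 4 lower. Of 23 lysosome and autophagy genes 3 were higher and 2 lower (0, 2, 1 and 1 lower on leaving out each library). Of 15 BCL2 family members 3 were higher and 1 lower. Of 14 CDK inhibitors and G1 cyclins 2 were higher and 1 lower (1, 1, 1 and 2 higher and 1, 1, 2 and 1 lower on leaving out each library). From FOXO targets to CDK inhibitors and G1 cyclins, the shares called were 53.3%, 35.0%, 21.7%, 26.7% and 21.4%, against 26.2% of all genes tested. For the Wnt list the share was 31.6%. GDF15, a stress cytokine among p53 targets, was at 1.14 and 1.05 FPKM in BR8 and 4.86 and 5.36 in BR10 (log2 difference -1.54 ± 0.18 (SE), adjusted p = 0.000486). S100 proteins were called 4 higher and 0 lower of 9 (4 and 0 also at an unadjusted p below 0.05 and with voom), with 1, 2, 1 and 1 higher on leaving out each library. S100A10 was at 301 and 303 FPKM in BR8 and 189 and 195 in BR10 (log2 difference 0.65 ± 0.08 (SE), adjusted p = 0.000619).

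Of 30 cytosolic ribosomal proteins 1 was lower in BR8 and 0 higher (7 and 0 at an unadjusted p below 0.05, 8 and 0 with voom), with a median of -0.22, and 1, 3, 1 and 1 were lower and 0, 1, 0 and 0 higher on leaving out each library. Of 13 mitochondrially encoded genes 0 were called (0 at an unadjusted p below 0.05, 1 lower with voom), with a median of 0.21. HOX genes and cancer-testis and imprinted genes had 1 and 2 tested members, and 0 of them were called by limma, at an unadjusted p below 0.05 or with voom. Thyroid identity was only in part visible in the RNA. Of 16 markers of thyroid follicular cells 4 were tested, with 1 called higher in BR8 and 1 lower (1 and 0 with voom). The lower one was HHEX, at log2 differences of -0.42 to -0.26 over the fits run, and it was not called in all of them. PAX8†, a thyroid transcription factor, was at 58.5 and 60.5 FPKM in BR8 and 51.9 and 54.6 in BR10 and was not called, and FOXE1, another, was called at 4.17 and 3.75 FPKM in BR8 and 2.04 and 2.65 in BR10 (log2 difference 0.58 ± 0.11 (SE), adjusted p = 0.00544). Thyroglobulin (TG) was at 0.23 and 0.181 FPKM in BR8 and 0.161 and 0.15 in BR10, and SLC5A5 (the iodide transporter) and NKX2-1 had no read in either colony. Markers of immune, endothelial, erythroid and melanocyte or neural crest cells had 0 tested members. Their summed levels were at most 0.227, 1.12, 0.174 and 0.928 FPKM in any of the 4 libraries. Fibroblast markers summed to 7.75 and 9.74 FPKM in BR8 and 2.19 and 2.64 in BR10, with 3 of the 9 at 0 in all 4 libraries, and LUM made up most of the BR8 sum. Squamous markers summed to 11.6 and 9.38 against 1.93 and 4.01 FPKM, nearly all from SFN (14-3-3 sigma, log2 difference 1.57 ± 0.22 (SE), adjusted p = 0.00123), with 4 of 7 at 0.

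The other groups show where each colony stood. Of the 1609 genes higher in BR8, DMSO was nearer BR10 for 79.4% and below both colonies for 57.1%. Of the 1622 lower in BR8, DMSO was nearer BR10 for 66.7% and above both colonies for 45.1%. Over all tested genes DMSO was nearer BR10 for 61.3%, below both colonies for 39.3% and above both for 40.1%. BR16, the other colony, was nearer BR10 for 58.6% of the genes higher in BR8, for 50.0% of those lower in BR8 and for 55.1% of all tested. It lay between the 2 colonies for 50.7% of the genes higher in BR8, 47.7% of those lower and 23.0% of all tested. For DMSO these shares were 34.3%, 36.6% and 20.5%. Called genes have a wider gap between the colonies, into which the value of any further group falls more often. These shares describe group means and were not tested.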

How the data were processed

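RNA of TPC-1 cells was sequenced without strand in 10 libraries, 2 for each of 5 groups. The authors deposited 1 FPKM value per gene and library; per the submitters' processing notes they used CASAVA, STAR 2.5, HTSeq 0.6.1 and DESeq2 version 2 with GRCh38. From an annotation release not given in the sources used here, all 58735 gene IDs matched GENCODE 29. The deposited FPKM could be turned back into reads, whole to within 0.05 for 100.0% of values. For BR8 against BR10, log2(FPKM + 1) of 12336 genes was fitted with limma 3.58.1 (R 4.3.3) with a mean-variance trend over all 5 groups, and p-values were adjusted by Benjamini-Hochberg over all genes, with a threshold of 0.05. The text names the 15 protein-coding and 4 other called genes of largest difference each way, up to 4 called members of a list, genes of the most shifted windows, RET, CCDC6, TERT and CDKN2A, and genes at 0 reads. Those ranked by difference also needed non-overlapping libraries of the 2 colonies and a mean of at least 1 FPKM in the higher. Further list members are named after their values were seen, for their call or level. Members and lists were chosen with earlier results of these data known. Fits were tested on simulated data. Alternatives covered pseudocount, filter, scaling, GC content, voom on recovered reads, replicate block and left-out libraries. The deposited values gave the same median-of-ratios factor, 1.0189, in all 10 libraries, so rescaling by it could hardly change a call. Some genes that the rule selects are not reported here.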

Additional observations from a re-analysis of the deposited data

How the results depend on the processing

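The 2 libraries of a colony may be technical repeats as far as the p-values can tell, and 1 colony per group cannot show how colonies vary. The number of called genes ranged from 1917 to 4238 on leaving out a library (963 to 2102 higher in BR8, 905 to 2139 lower). With an FPKM of at least 5, 1046 were lower. With an absolute log2 difference of at least 1, 569 were called, 308 higher and 261 lower. With the replicate number as a block, 1455 were higher and 1456 lower (2911 in all); the replicate differences of BR8 and BR10 correlated at r = -0.11, so the samples share only a number. Crossed numbers, chosen after seeing the data, gave 3351. A fit on the 6 colony libraries alone, without the parental cells, called 4315 genes. Of windows along the chromosomes, 10 of 241 (10 Mb) and 20 of 453 (5 Mb) had an absolute median of at least 0.5. None of the 190 genes that the naming rule selects changed direction in any alternative run, and 160 were called in every one; other list members named in the text were not followed gene by gene.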
